A study of Mus musculus with 16 samples.

Results

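The genes described here are 41 antiviral interferon-stimulated genes, chosen by name as effector genes of the interferon response and matched by gene symbol to the table of deposited counts. All 41 were found among its 55487 genes, and all 41 were among the 12372 genes that passed the filter on low counts. They were followed in BMDMs, macrophages raised in culture from bone marrow, here of wild-type (WT) Balb/c mice of 8 weeks. The 16 RNA-sequencing samples fell into 6 groups. BMDMs were kept in DMEM, the medium without tumor factors (2 samples), in DMEM with ruxolitinib (DMEM + Rux, 3 samples), in medium conditioned by 4T1 mouse mammary tumor cells (CM, 3 samples), in CM to which ruxolitinib was added at 0.5 μM (CM + Rux, 3 samples labelled 4 h, and 2 further samples labelled 2 h), or in CM carrying the same ruxolitinib dose plus IKK-16 at 0.8 μM (CM + Rux + IKK-16, 3 samples). The dose in DMEM + Rux is not in the labels. Per the methods of the paper, BMDMs were serum starved for 2 h before CM, and ruxolitinib was already present during that pre-treatment. Total counts per sample ran from 18449388 to 46215853. The labels do not say whether replicates came from separate mice, so p-values measure the spread between these samples only.

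Ruxolitinib blocks JAK1 and JAK2. IKK-16 blocks IKK, the kinase complex upstream of NF-κB. Type I interferons bind the receptor chains IFNAR1 and IFNAR2, which carry TYK2 and JAK1. These kinases phosphorylate STAT proteins, which join IRF9 and bind the interferon-stimulated response element (ISRE) in promoters. The proteins made in turn act against viruses by binding viral RNA, degrading RNA, blocking translation or modifying other proteins with ISG15. Macrophages in culture are known to keep a low tonic level of these genes through small amounts of interferon-β. Some of them can also be switched on by interferon regulatory factors or by NF-κB without new interferon.

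The promoters were looked at because the members share a signalling route. RefSeq promoters (250 bases before to 50 bases after the start of transcription, build GRCm38.p6, gene strand, reference strain and not Balb/c) were at hand for 31 members. The ISRE core, spelled GAAANNGAA and searched on both strands, was present in the promoters of 15 of these 31 (48.4%). Of the 27025 genes for which a RefSeq promoter was used, the members among them, 9.76% had it. The interferon motif GAS (TTCNNNGAA, both strands), whose matches can share bases with an ISRE core, was present in 5 of the 31 (16.1%), against 9.55%. The κB consensus was also present in 5 of the 31 (16.1%), again against 9.55%. A match describes letters in this window and no binding. Printed here are 4 promoters with the ISRE core in capitals, from members with different responses to ruxolitinib in CM, and then the promoter of Oasl1, which has no ISRE core in this window and has overlapping matches to the κB consensus, in capitals. They lie at chr4:156200769-156201068 (Isg15, minus strand), chr19:34640639-34640938 (Ifit1, plus strand), chr19:34583279-34583578 (Ifit3, plus strand), chr12:26456403-26456702 (Rsad2, minus strand) and chr5:114922990-114923289 (Oasl1, plus strand).
Isg15: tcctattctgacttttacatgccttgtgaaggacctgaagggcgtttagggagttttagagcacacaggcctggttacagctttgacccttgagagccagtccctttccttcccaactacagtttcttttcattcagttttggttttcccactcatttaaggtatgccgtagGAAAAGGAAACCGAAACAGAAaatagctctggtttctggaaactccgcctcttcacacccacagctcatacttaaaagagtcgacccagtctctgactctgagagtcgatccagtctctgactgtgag
Ifit1: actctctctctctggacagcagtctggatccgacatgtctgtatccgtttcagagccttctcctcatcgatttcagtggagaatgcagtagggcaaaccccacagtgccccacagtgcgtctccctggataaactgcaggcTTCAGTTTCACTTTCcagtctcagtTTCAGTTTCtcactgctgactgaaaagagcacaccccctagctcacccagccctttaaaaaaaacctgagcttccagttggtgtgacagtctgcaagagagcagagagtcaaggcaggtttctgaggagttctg
Ifit3: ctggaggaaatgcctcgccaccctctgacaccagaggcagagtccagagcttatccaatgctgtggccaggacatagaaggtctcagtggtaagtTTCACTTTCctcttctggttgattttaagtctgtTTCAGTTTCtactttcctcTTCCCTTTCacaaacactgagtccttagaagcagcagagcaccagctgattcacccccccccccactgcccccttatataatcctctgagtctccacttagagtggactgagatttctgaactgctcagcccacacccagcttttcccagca
Rsad2: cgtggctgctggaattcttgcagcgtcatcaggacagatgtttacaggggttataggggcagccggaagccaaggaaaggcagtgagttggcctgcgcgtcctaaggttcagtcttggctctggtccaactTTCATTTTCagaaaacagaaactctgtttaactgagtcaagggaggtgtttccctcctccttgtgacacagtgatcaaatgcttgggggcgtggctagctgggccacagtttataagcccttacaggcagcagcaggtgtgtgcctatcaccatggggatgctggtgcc
Oasl1: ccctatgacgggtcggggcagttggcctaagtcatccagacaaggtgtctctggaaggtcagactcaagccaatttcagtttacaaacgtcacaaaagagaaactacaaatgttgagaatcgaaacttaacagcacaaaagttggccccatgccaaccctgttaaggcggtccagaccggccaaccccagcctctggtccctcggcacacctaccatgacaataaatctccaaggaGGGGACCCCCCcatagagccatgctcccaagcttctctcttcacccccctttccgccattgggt
The Isg15 promoter held 3 overlapping matches that began 78, 72 and 66 bases before the start. Those of Ifit3 began 155, 121 and 102 bases before it, and the neighboring Ifit3b had 3 as well, at 187, 153 and 134 bases. The Ifit1 promoter had 3 and the Rsad2 promoter 1, while the κB matches of Oasl1 began 14 and 13 bases before its start. Of the 41 genes, 19 lay in 7 groups of members less than 200 kb apart. Among these were Ifit2, Ifit3, Ifit3b and Ifit1 on chromosome 19 and Oas2, Oas3, Oas1g and Oas1a on chromosome 5. How reads that align to several places were counted is not given in the sources used here, so the values of near-identical copies (Ifit3 and Ifit3b, Oas1a and Oas1g, Phf11b and Phf11d) are uncertain.

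The cells carried macrophage markers in every sample. The 9 macrophage genes summed to between 40290 and 57180 CPM (counts scaled to sample depth, here with relative log expression factors), led by Lyz2. Single markers of this list changed, with Cd14 (log2 fold change 2.68) and Itgam (0.99) higher and Csf1r (-0.61) lower in CM than in DMEM, Mertk lower with ruxolitinib in CM (-1.71), and Mertk higher at 2 h (1.25). With ruxolitinib in both media Cd14 (2.96) and Itgam (0.70) were higher and Mertk (-2.52) lower in CM. Of 8 T and NK cell markers, at least 6 were at 0 in each sample and only Cd4 was above 3 counts. The 8 neutrophil markers, led by S100a8, summed to 0.327 and 0.354 CPM in DMEM and to 1.72 to 3.24 CPM in CM. S100a8 was called higher in CM than in DMEM (2.97) and in CM + Rux than in DMEM + Rux (1.96), and lower at 2 h than at 4 h (-1.25). The 6 epithelial markers of 4T1 cells summed to at most 0.118 CPM in DMEM and to 0.692 to 1.45 CPM in CM. Of the 8 markers of plasmacytoid dendritic cells, which are strong producers of interferon, Tcf4 held 66.6 to 110.6 CPM, and 3 to 7 of the 8 were at or under 3 counts in each sample. Of this list Ccr9 rose with ruxolitinib in CM (log2 fold change 1.46, with 40, 47 and 25 counts against 4, 12 and 16), was higher in CM + Rux than in DMEM + Rux (3.56) and was lower at 2 h than at 4 h (-1.06), while Tcf4 was called in none of the 7 comparisons. Of the B cell list, Ighm differed between the media, with 78.9 and 142.5 CPM in DMEM and 10.3 to 13.9 CPM in CM, and with 70.7 and 55.2 CPM in the CM + Rux 2 h samples against 11.6 to 14.8 CPM at 4 h. Cd79b was also called lower in CM than in DMEM (3, 6 and 2 counts against 41 and 26), and in CM + Rux than in DMEM + Rux. The fibroblast list summed to 5.82 to 20.9 CPM. The dendritic cell list summed to 1.72 and 2.33 CPM in DMEM, 1.06 to 2.23 CPM in DMEM + Rux, 4.502 to 7.57 CPM in CM, 7.37 to 11.1 CPM in CM + Rux, 13.4 and 17.2 CPM at 2 h and 3.43 to 5.16 CPM with IKK-16. In it Ccr7 was called higher in CM than in DMEM (3.42) and in CM + Rux than in DMEM + Rux (4.40), and lower with IKK-16 (-1.42), and Zbtb46 was called higher in CM + Rux than in DMEM + Rux (1.05) and at 2 h (2.41). In bulk RNA, fewer cells of a type and less RNA per cell cannot be told apart. The part of such cells in the results was not tested.

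One set of libraries stood apart. In CM, replicate 2 had the highest value of the 3 samples for 39 of the 41 members, and replicate 2 was also the highest for 30 members in CM + Rux and for 26 in CM + Rux + IKK-16. In DMEM, which has 2 samples, replicate 2 was the higher for 41 of 41 members, and the members summed to 5617 CPM against 4260 CPM in replicate 1. In DMEM + Rux the highest values were spread over replicates 1, 2 and 3, with 13, 16 and 12 members. Several results that rest on the number 2 samples of the CM groups, or on DMEM replicate 2, are given with and without them. For others the values per sample are given. The run without the number 2 samples left out those of CM, CM + Rux and CM + Rux + IKK-16 together. It kept those of DMEM, DMEM + Rux and CM + Rux 2 h. The map of all members by sample shows the pattern.

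**Figure D1:**
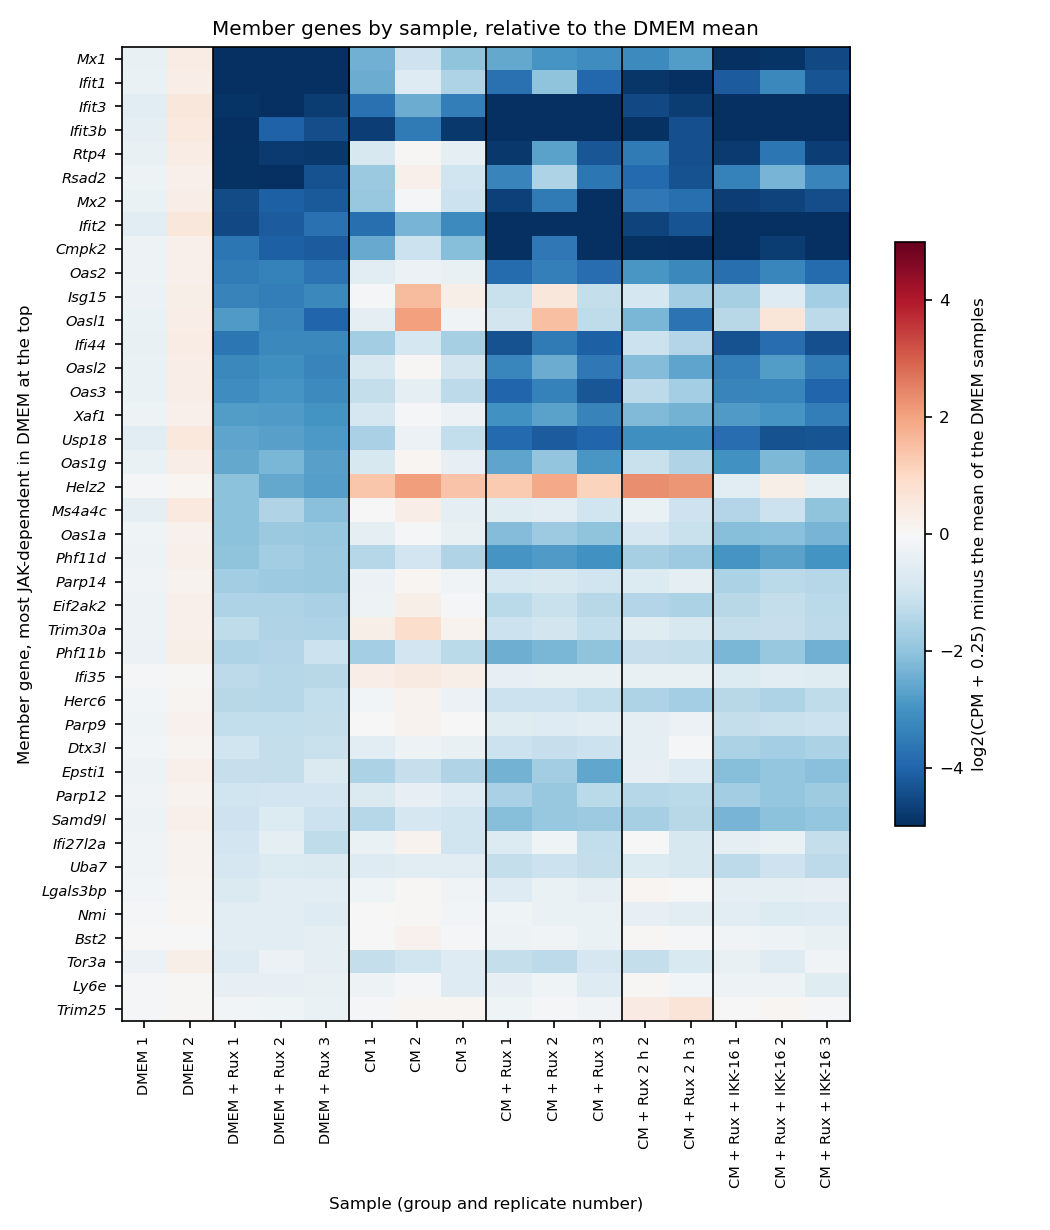
Each cell gives log2(CPM + 0.25) of a member gene (rows) in a sample (columns) minus the mean of the DMEM samples, and values beyond 5 in size have the end color. Blue fills the DMEM + Rux columns and most of the CM + Rux columns for the upper members, while Helz2 is red in CM and in CM + Rux, and Oasl1 and Isg15 are red in replicate 2 of both groups.

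Levels were compared between genes per exon length, as RPKM (the CPM divided by exon length in kilobases). In DMEM the highest member was Ifi27l2a, an interferon-induced mitochondrial protein, with 400.0 ± 75.8 RPKM (SD, n = 2). Ly6e, a membrane protein that hinders virus fusion, followed with 219.8 ± 13.3, and Lgals3bp, a secreted glycoprotein, with 206.7 ± 24.6 RPKM. The last 2 did not differ beyond their spread. In CM the same 3 genes led, with 318.0 ± 123.3, 175.8 ± 31.5 and 191.1 ± 19.2 RPKM (SD, n = 3) for Ifi27l2a, Ly6e and Lgals3bp. Ly6e and Ifi27l2a were called in none of the 7 comparisons. The strongly regulated members were lower, for example Ifit1 with 19.5 ± 6.14 RPKM, Isg15 with 31.8 ± 9.47 RPKM and Mx1 with 8.44 ± 2.97 RPKM in DMEM (SD, n = 2).

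The first question was how far the members depended on JAK activity without tumor factors. In DMEM ruxolitinib lowered 35 of the 41 members, and 0 were called higher (calls needed a Benjamini-Hochberg adjusted p below 0.05 in edgeR's quasi-likelihood test, and a change of more than 0.5 on the log2 scale). Of all 12372 genes tested, 0.97% were called lower and 0% higher, with 50 higher at an unadjusted p under 0.05. No member had a positive log2 fold change, and DESeq2 also called 0 members higher. The median log2 fold change of the members was -1.95, against 0.01 for all genes tested. Of the 100 most negative log2 fold changes of all genes, 25 were members.

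The RNA-binding IFIT proteins, which recognize viral RNA ends, were among the most dependent. Ifit3 had 33.8 and 74.3 CPM in DMEM and 1.43, 1.07 and 1.65 CPM in DMEM + Rux. The groups lay far apart. The level left was 2.53% (log2 fold change -5.30 ± 0.42 SE, adjusted p = 7.6e-06). Ifit1 had 40.3 and 63.3 CPM in DMEM against 1.15, 1.05 and 1.13 CPM with ruxolitinib, a level of 2.14% (log2 fold change -5.55). Mx1, a GTPase that traps viral particles and is defective in many inbred mouse strains, was the most dependent of all members. It had 24.0 and 39.9 CPM in DMEM and 0.461, 0.602 and 0.712 CPM in DMEM + Rux, a level of 1.90% (log2 fold change -5.72 ± 0.40, adjusted p = 4e-06). Rtp4, a Golgi protein chaperone, had 64.5 and 110.7 CPM against 2.54, 2.81 and 2.72 CPM, and 3.10% was left (log2 fold change -5.01). Ifit3b had 10.4 and 21.2 CPM in DMEM and 0.231, 0.669 and 0.453 CPM with ruxolitinib (log2 fold change -5.01). Ifit3b passed the filter on low counts only through the DMEM samples, where it was high, so its fall is partly set by the filter. In each of these genes every sample with ruxolitinib was below every DMEM sample.

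Across roles in DMEM, ruxolitinib lowered 4 of 4 IFIT genes, 2 of 2 Mx genes and both of the viperin pair, Rsad2 (log2 fold change -4.95) and its neighbor Cmpk2 (-4.07). It lowered 5 of 6 genes of the OAS family, which make the activator of RNase L. The exception was Oasl1, which is known to restrain IRF7 translation, with 28.4 and 45.7 CPM in DMEM and 4.89, 3.41 and 2.07 CPM with ruxolitinib (log2 fold change -3.45, adjusted p = 0.24). Its samples did not overlap between the groups, and DESeq2 called it. It lowered 4 of 5 genes of the ISG15 system and 5 of 5 of the group of PARP genes, the E3 ligase gene Dtx3l and Helz2. Isg15 fell by 3.52 on the log2 scale (adjusted p = 0.0093), a call lost without DMEM replicate 2 (0.067) or any 1 of the 3 DMEM + Rux samples (0.050 to 0.068). Of the membrane and secreted proteins it lowered 4 of 5, and 3 of 3 in each of the translation blocks (Eif2ak2, Samd9l, Xaf1) and the regulators (Nmi, Ifi35, Trim30a). Of the 6 other interferon-induced genes 3 were lower, Ifi44 (-3.41), Phf11d (-1.93) and Phf11b (-1.39), while Epsti1 (-1.04, adjusted p = 0.051), Ifi27l2a (-0.88) and Tor3a (-0.48) were not called. Without DMEM replicate 2, 27 of the 41 members were called lower. Bst2, Isg15, Lgals3bp, Ms4a4c, Nmi, Phf11b and Samd9l lost their call, and Ifit3b did not pass the filter on low counts. The members with the most left were Trim25 (84.5%), an E3 ligase that ISG15 modifies, Ly6e (76.0%) and Tor3a (71.5%), none of them called.

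In the second medium, CM, ruxolitinib lowered 27 of the 41 members and raised 0. Of all genes, 2.13% were called lower and 1.2% higher. No member had a positive log2 fold change, and DESeq2 called 29 lower and 0 higher. The median log2 fold change was -1.12, against 0.01 for all genes. With the replicate number as a block, 32 members were called lower, the 27 and also Epsti1, Ifit1, Isg15, Ms4a4c and Rsad2. Without the number 2 samples 27 were called lower, of which 23 were among those of the full set. Mx1, Ifit3b, Phf11b and Samd9l were lost and Epsti1, Ifit1, Isg15 and Rsad2 gained.

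Ifit3 was again strongly dependent, with 3.50, 8.70 and 4.39 CPM in CM and 0.162, 0.460 and 0.407 CPM in CM + Rux. The level left was 6.01% (log2 fold change -4.06 ± 0.49, adjusted p = 2.6e-04). Mx2, an antiviral GTPase related to Mx1, had 4.00, 14.9 and 7.41 CPM in CM and 0.377, 1.14 and 0.254 CPM with ruxolitinib (log2 fold change -3.78). Ifit2 had 6.45, 17.8 and 9.77 CPM against 0.620, 1.36 and 0.763 CPM (-3.61). Oas2 was the steadiest of these, with 68.7, 81.7 and 78.2 CPM in CM and 6.76, 9.32 and 7.02 CPM in CM + Rux, and 10.2% was left (log2 fold change -3.30 ± 0.19, adjusted p = 1.1e-06). Rtp4 had 48.3, 87.3 and 60.0 CPM against 2.78, 12.9 and 4.12 CPM (-3.27). No samples of the 2 groups overlapped in these 5 genes. Ifit3b had only 1 to 3 counts in each CM + Rux sample, so no fold is given. Its call was lost without CM replicate 2 (adjusted p = 0.29), CM + Rux replicate 1 (0.17) or replicate 2 (0.11), or DMEM + Rux replicate 3 (0.050), and Ifit3b did not pass the filter on low counts without either DMEM sample.

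Other members fell less in CM than in DMEM or were not called. Helz2, a helicase that acts as a nuclear coactivator, had 287.8, 459.2 and 296.3 CPM in CM and 270.5, 405.6 and 237.7 CPM in CM + Rux. The groups overlapped, and 87.6% was left (log2 fold change -0.19, adjusted p = 0.84). Oasl1 had 26.5, 148.8 and 31.7 CPM in CM and 19.1, 102.2 and 14.6 CPM in CM + Rux, with replicate 2 high in both groups (log2 fold change -0.60, adjusted p = 0.84). Isg15 had 21.2, 66.6 and 26.9 CPM against 10.02, 32.9 and 9.46 CPM, and the groups overlapped (log2 fold change -1.12, adjusted p = 0.30). Ifit1 had 8.89, 32.1 and 17.1 CPM against 3.56, 12.5 and 3.10 CPM (-1.57, adjusted p = 0.11). Rsad2 had 19.2, 85.5 and 35.8 CPM against 7.09, 24.5 and 5.59 CPM (-1.90, adjusted p = 0.077). In the fit with the replicate block the last 3 were called, with adjusted p-values of 0.0053, 0.0014 and 0.0024, while Oasl1 (0.29) and Helz2 (0.60) were not. Mx1 had 5.61, 14.8 and 7.45 CPM against 5.01, 3.78 and 3.41 CPM (-1.20, adjusted p = 0.043). The fall of Mx1 rested on few libraries, with -0.68 and an adjusted p of 0.24 without CM replicate 2, and -0.61 (0.42) without the number 2 samples. The call of Mx1 was also lost without any 1 of the CM + Rux samples (0.076 to 0.15) or of the DMEM + Rux, CM + Rux 2 h and 2 of the IKK-16 samples (0.050 to 0.060).

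**Figure D2:**
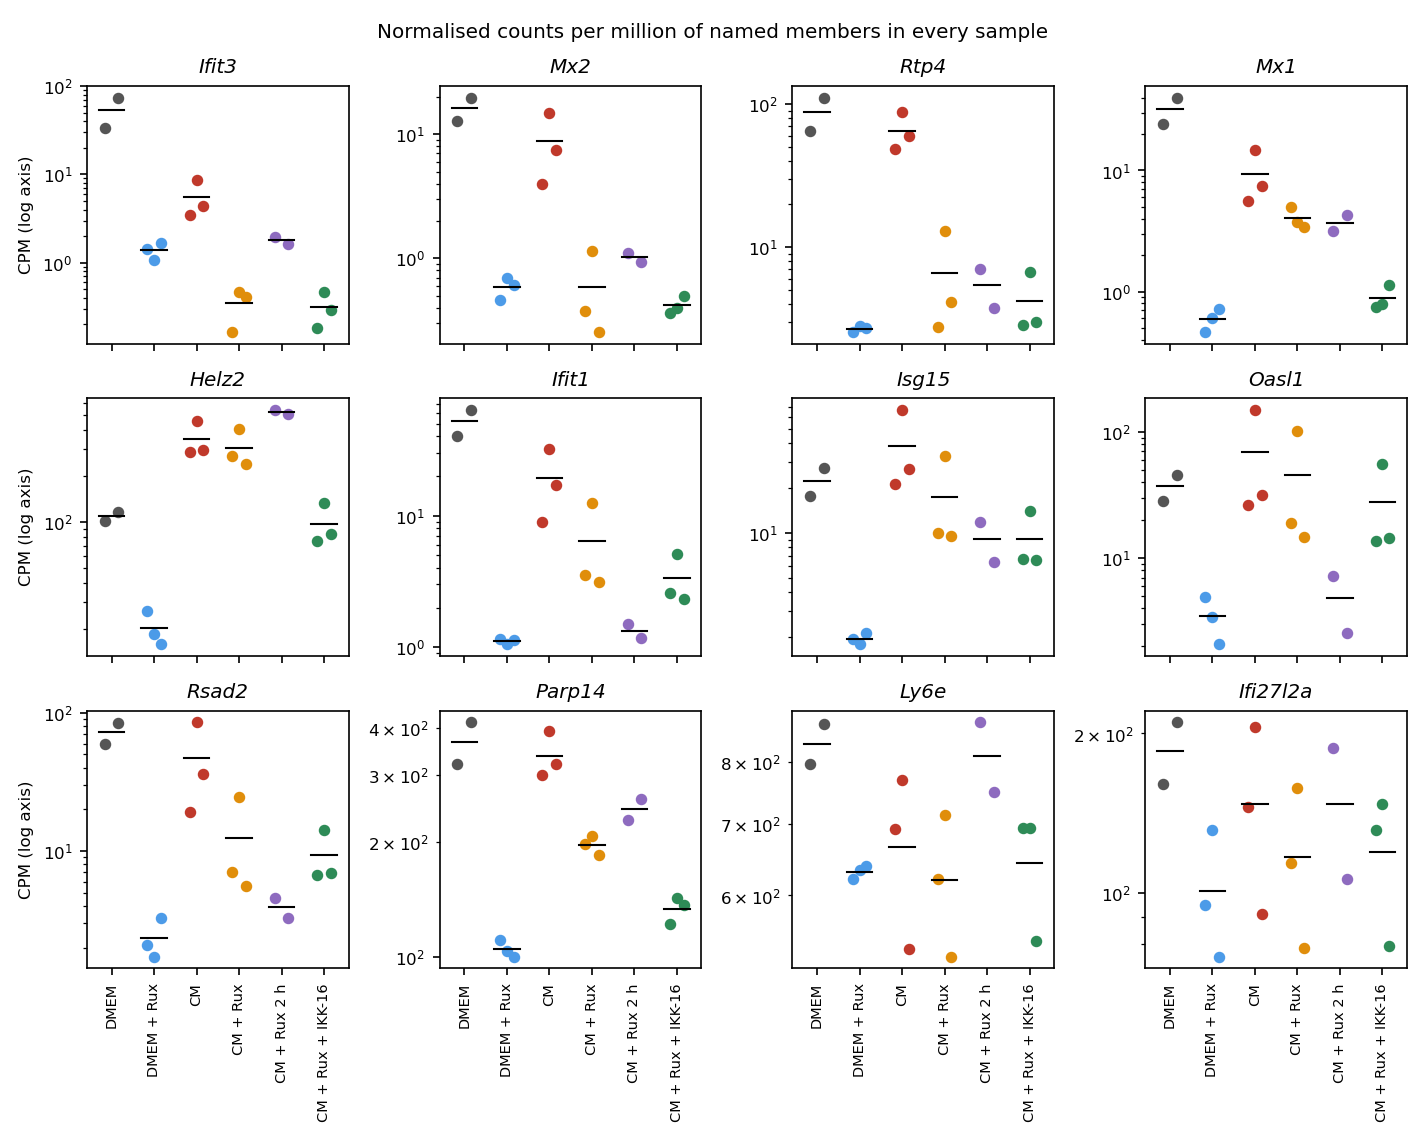
Normalized CPM of 12 members in every sample on a log axis (points, colored by group; bars are group means). Ifit3, Mx2 and Rtp4 drop with ruxolitinib in both media, Helz2 drops in DMEM + Rux and lies in overlapping ranges in CM and CM + Rux, and Mx1 is higher in CM + Rux than in DMEM + Rux and lower again with IKK-16.

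Ranked by the log2 fold change with ruxolitinib, the most dependent members in DMEM were, in order, Mx1, Ifit1, Ifit3, Ifit3b, Rtp4, Rsad2, Mx2, Ifit2, Cmpk2 and Oas2. In CM they were Ifit3, Mx2, Ifit2, Oas2, Rtp4, Usp18, Ifit3b, Oas3, Cmpk2 and Xaf1, and 7 genes were among the first 10 in both media. The place of Ifit3b in CM rests on the fitted value of a gene with 1 to 3 counts per CM + Rux sample and is uncertain. Over the 41 members the log2 fold changes in the media had a Spearman correlation of 0.79 and a Pearson correlation of 0.75, as a description across genes, which share libraries and pathway. The 2 comparisons use different samples. In DMEM 13 members kept less than 10% of their level, and in CM 3 did (Ifit3, Mx2 and Ifit2). In CM Oas2 (10.2%), Rtp4 (10.4%) and Usp18 (10.5%) lay just above that limit, so the count in CM is sensitive to it. Rtp4 had 2.78, 12.9 and 4.12 CPM in CM + Rux, with replicate 2 high. The median level left was 25.9% in DMEM and 46.0% in CM, and 38 members had the more negative value in DMEM. Usp18, which removes ISG15 and brakes the interferon receptor, moved up from rank 17 in DMEM to rank 6 in CM, with 13.4% and 10.5% left. Moving down were Helz2 (rank 19 to 39), Oasl1 (12 to 32), Mx1 (1 to 20), Ifit1 (2 to 17) and Isg15 (11 to 21). At the other end, Trim25, Ly6e, Tor3a, Bst2 and Nmi were among the least dependent in both media. By the call in the fit without the replicate block, 27 members were lower in both media, 8 in DMEM and not in CM, and 6 in neither. Of these 8, Ifit1, Isg15, Ms4a4c and Rsad2 were called lower in CM when the block was used. The split therefore depends on the model. The 15 members with an ISRE core in the promoter had a median log2 fold change of -2.61 in DMEM and -1.57 in CM. The 16 without one had -1.66 and -0.78, a description without a test. The ranges overlapped widely. In DMEM they ran from -5.55 to -0.24 with the core and from -4.27 to -0.60 without it. In CM they ran from -4.06 to -0.21 and from -3.61 to -0.19. Other spellings of the ISRE were not searched, so members without this core may still carry one.

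**Figure D3:**
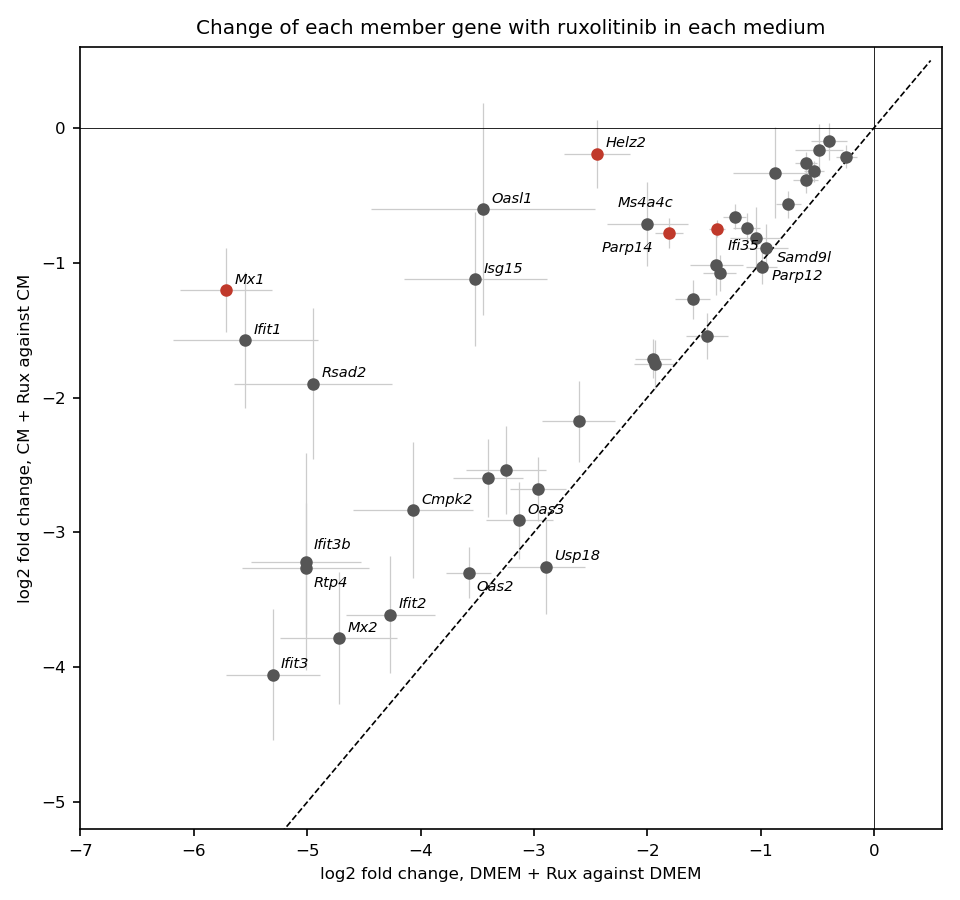
Log2 fold change of each member with ruxolitinib in DMEM (x axis) and in CM (y axis), with standard errors, and the dashed line marks equal changes. Most points lie above the line, and red points (Mx1, Helz2, Parp14 and Ifi35) are the 4 members whose changes differed between the media by the interaction test.

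Whether ruxolitinib acted differently in CM and in DMEM was tested as an interaction. The difference, CM minus DMEM, was called for 4 members, all of them with the smaller fall in CM, and for 0 in the other direction. Of all genes, 0.234% were called with a positive and 0.178% with a negative difference. It was 4.51 ± 0.51 for Mx1 (adjusted p = 0.0029), 2.25 ± 0.38 for Helz2 (0.026), 1.03 ± 0.17 for Parp14 (0.018) and 0.63 ± 0.10 for Ifi35 (0.012), all on the log2 scale with SE. Parp14 had 321.7 and 414.0 CPM in DMEM, 110.6, 103.8 and 100.1 CPM in DMEM + Rux, 300.5, 392.6 and 321.9 CPM in CM and 198.3, 207.6 and 185.3 CPM in CM + Rux. With the replicate number as a block 12 members were called, the 4 and also Ifi44, Ifit1, Isg15, Ms4a4c, Oasl1, Parp9, Rsad2 and Rtp4, although DMEM has only 2 numbers to pair. The share of all genes called was not computed with the block, so this count has none beside it. Large differences that missed the threshold were 3.97 for Ifit1 (adjusted p = 0.050), 3.05 for Rsad2 (0.16), 2.85 for Oasl1 (0.51) and 2.40 for Isg15 (0.27). These 4 were called without the number 2 samples, where 8 members were called, with differences of 2.22 to 3.59. That run left out the high library of CM but kept DMEM replicate 2, the higher DMEM sample, so it treats the media unequally. Without DMEM + Rux replicate 3 or CM replicate 1 the count was 2, with Helz2 and Parp14 lost. Parp14 was also lost without CM + Rux replicate 1. Helz2 was also lost without DMEM replicate 1, DMEM + Rux replicate 2 or CM replicate 3 (adjusted p of 0.050 to 0.076 over these samples, with a difference of at least 2.11).

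Conditioned medium alone lowered 16 members and raised 1, where 24.1% of all genes were called lower and 20.9% higher. The median of the members was -0.42. As shares of the members, 39.0% were lower and 2.44% higher. In this comparison relative log expression factors shifted all values by 0.31 on the log2 scale, and changes are given relative to that shift. The called rise was that of Helz2, with 101.7 and 116.3 CPM in DMEM and 287.8 to 459.2 CPM in CM (log2 fold change 1.67 ± 0.30, adjusted p = 2.7e-04). Oasl1 (0.91, adjusted p = 0.40), Isg15 (0.79, 0.24), Trim30a (0.46) and Ifi35 (0.35) had the next values and were not called. Oasl1 had 28.4 and 45.7 CPM in DMEM and 26.5, 148.8 and 31.7 CPM in CM. Isg15 had 17.7 and 27.1 CPM in DMEM and 21.2, 66.6 and 26.9 CPM in CM. In both genes only CM replicate 2 lay above both DMEM samples, so their positive values rest on that sample. All 4 IFIT genes were lower. Ifit3b fell by 4.68 on the log2 scale (0.334, 1.07 and 0.285 CPM in CM), Ifit3 by 3.25 and Ifit2 by 3.07, with no overlap of samples in any of the 3. Since Ifit3b passed the filter on low counts only through the DMEM samples, its fall is partly set by the filter. Ifit1 fell by 1.40 (adjusted p = 0.031), a call lost without DMEM replicate 2 (0.20), CM replicate 1 (0.097) or CM replicate 3 (0.079). Cmpk2 fell by 1.78 and Mx1 by 1.75. Of the 6 further interferon-induced genes 5 were lower, with log2 fold changes between -0.97 (Tor3a) and -1.45 (Epsti1), and of the 6 OAS genes only Oas3 was (-0.96). Without DMEM replicate 2 the lower members were 10. Ifit1, Oas3, Parp12, Uba7 and Usp18 lost their call, and Ifit3b did not pass the filter. Without the number 2 samples of the CM groups, a run that kept DMEM replicate 2, the lower members were 21.

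With ruxolitinib in both arms, CM + Rux against DMEM + Rux, 11 members were higher and 11 lower, where 22.3% of all genes were higher and 25% lower. The scaling shift was 0.301. Helz2 had 26.1, 18.4 and 15.8 CPM in DMEM + Rux and 270.5, 405.6 and 237.7 CPM in CM + Rux, the largest change of the members (15.2-fold, log2 fold change 3.93 ± 0.29, adjusted p = 4.8e-08). Oasl1 was 13.5-fold higher (3.76 ± 0.94, adjusted p = 0.0029) and 2.33 on the log2 scale without the number 2 samples. Isg15 had 1.94, 1.78 and 2.14 CPM in DMEM + Rux and was 9.09-fold higher in CM + Rux (3.18, or 2.33 without those samples). Mx1 was 6.76-fold higher (2.76) and Ifit1 5.94-fold (2.57, or 1.61 without them). In all 5 genes every CM + Rux sample was above every DMEM + Rux sample. Rsad2, Rtp4, Ms4a4c, Ifi35, Parp14 and Parp9 were also higher. Rtp4, at 1.33, fell to 0.31 (adjusted p = 0.43) without the number 2 samples and was lost without CM + Rux replicate 2 or any 1 DMEM + Rux sample (0.084 to 0.086, and 0.58 without CM + Rux replicate 2). In the other direction Ifit2 (-2.41) and Ifit3 (-2.00) were lower, as were Ifit3b, Usp18, Epsti1, Phf11d, Samd9l, Phf11b, Oas3, Tor3a and Parp12. So Ifit1 and its neighbors Ifit2 and Ifit3 were called in opposite directions. With the block 11 were higher and 12 lower, the added gene being Ifi44.

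**Figure D4:**
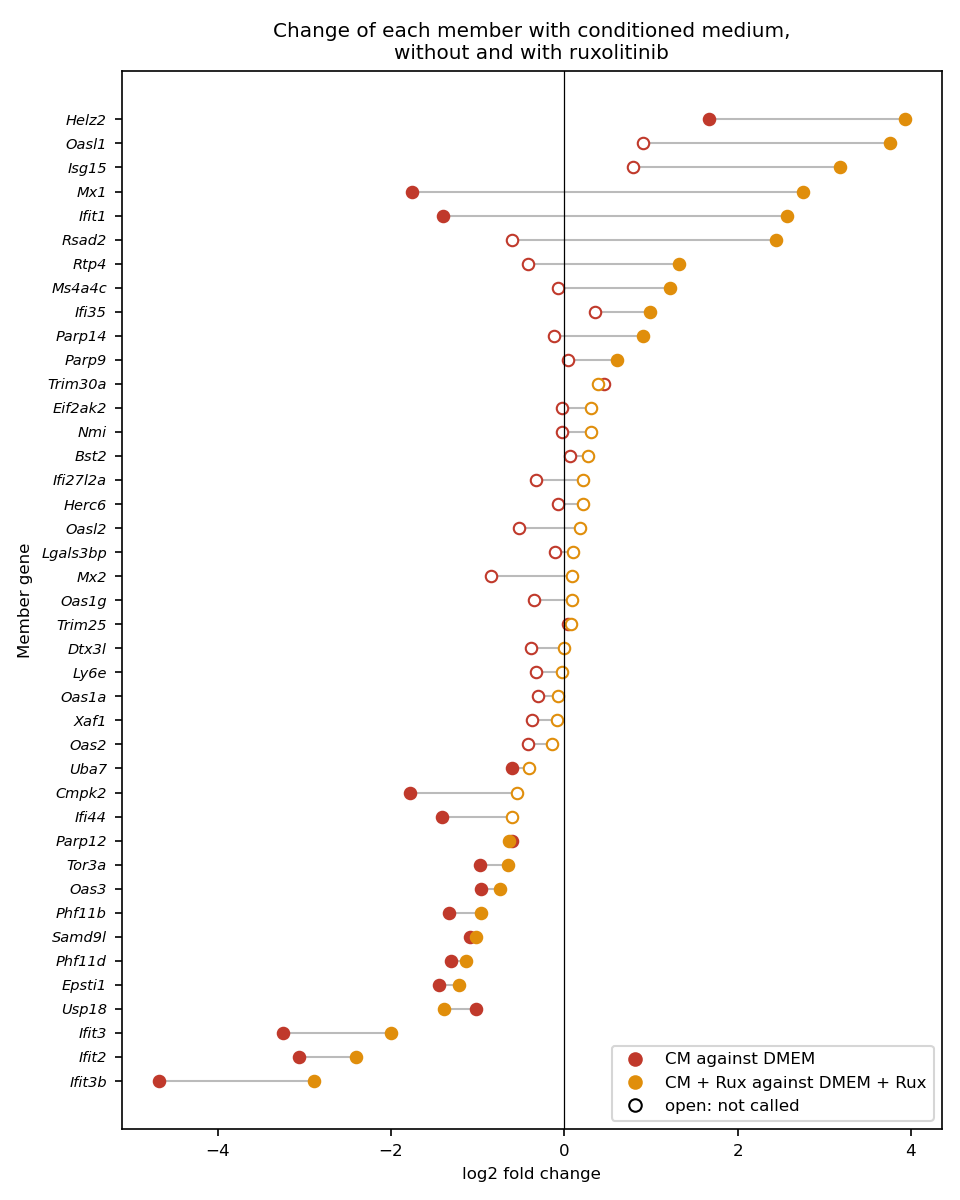
Log2 fold change of each member in CM against DMEM (red) and in CM + Rux against DMEM + Rux (orange), with filled points for called and open points for not called values. Helz2 leads both, Mx1 and Ifit1 lie below 0 without and above 0 with ruxolitinib, and Ifit2, Ifit3 and Ifit3b lie below 0 in both.

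IKK-16 was added to CM + Rux to ask which genes needed IKK activity. It lowered 5 members and raised 1, where 3.66% of all genes were lower and 4.07% higher. Mx1 had 5.01, 3.78 and 3.41 CPM in CM + Rux and 0.747, 0.795 and 1.14 CPM with IKK-16, with no overlap (4.59-fold lower, log2 fold change -2.20 ± 0.37, adjusted p = 0.0017). Helz2 had 75.6, 132.6 and 83.9 CPM with IKK-16, below each CM + Rux sample (3.13-fold lower, -1.65 ± 0.26, adjusted p = 0.0012). Parp14 (-0.56), Parp9 (-0.54) and Dtx3l (-0.50), which lie together on chromosome 16, were the others, so that 4 of the 5 genes of this group, with Helz2, were called. Dtx3l lay at the fold threshold and was not called under TMM normalization, and Parp14 was lost without IKK-16 replicate 1. Ifit1 (-0.98, adjusted p = 0.25), Isg15 (-0.97, 0.23) and Cmpk2 (-0.86, 0.35) had large values that missed the threshold. With the replicate block Ifit1 (0.049), Isg15 (0.021) and Ms4a4c were called, for 8 in all. Without the number 2 samples the same 5 genes were lower, and Ifit1 was at -0.45 and Isg15 at -0.56. Cmpk2 had 0.997, 5.13 and 1.37 CPM in CM + Rux and 1.06, 2.14 and 1.19 CPM with IKK-16, so its value rests on replicate 2. Oasl1 was not called, with 13.7, 55.1 and 14.4 CPM against 19.1, 102.2 and 14.6 CPM (-0.73, adjusted p = 0.60). The member called higher was Tor3a, an ATPase of the endoplasmic reticulum (0.71, adjusted p = 0.024), and it was lost without CM + Rux replicate 1 or 2 or IKK-16 replicate 1 or 3.

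The 2 samples of CM + Rux labelled 2 h were set beside those labelled 4 h. In the 2 h samples 15 members were higher and 2 lower, where 12.6% of all genes were higher and 10.7% lower. Ifi44, a cytoplasmic interferon-induced protein, had 97.4 and 73.7 CPM at 2 h and 9.76, 17.7 and 11.9 CPM at 4 h (log2 fold change 2.70 ± 0.31, adjusted p = 2.3e-05). Ifit3 (2.41), Oas3 (2.36), Ifit2 (1.99) and Epsti1 (1.71) were higher too. The call of Ifit3 was lost without CM + Rux 2 h replicate 2 (0.057). Helz2 had 538.8 and 508.0 CPM at 2 h (0.78, adjusted p = 0.040), lost without either 2 h sample or CM + Rux replicate 1 or 3 (0.11 to 0.15). Lower at 2 h were Oasl1, with 7.17 and 2.57 CPM (-3.14), and Ifit1, with 1.49 and 1.17 CPM (-2.27), below every 4 h sample. At 4 h Oasl1 had 19.1, 102.2 and 14.6 CPM and Ifit1 3.56, 12.5 and 3.10 CPM, so CM + Rux replicate 2 enlarges both folds. The calls of Oasl1 and Ifit1 were lost without either 2 h sample or CM + Rux replicate 2, and when only the 2 groups were fitted. Mx1 had 3.17 and 4.26 CPM at 2 h (-0.17, adjusted p = 0.75). Both groups were in CM with ruxolitinib, and no sample without ruxolitinib carries a 2 h label.

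The interferon pathway upstream of the members was described from a list of 45 genes, of which 24 were tested. None of the 20 ligands passed the filter. Ifnb1, the interferon-β gene, had at most 7 counts in a sample (0.207 CPM), and every interferon-α gene of the list was at 0 counts in all samples, where a count of 0 allows up to 3 counts a sample. Of the 5 receptors tested, 3 were called higher in CM than in DMEM, among them Ifnar1 (log2 fold change 1.66) and Ifnar2 (0.82). Ifngr1 was called lower (-0.75). The kinase Jak1 was higher in CM (0.69), while Tyk2 was not called (-0.04). Jak2 was higher by 3.59. Of the transcription factors, Irf9 (-1.84), Irf7 (-1.55) and Stat2 (-1.46) fell with ruxolitinib in DMEM, and in CM these 3 fell (-1.46, -1.41 and -0.85) together with Irf8 (-0.90). Of the brakes, Socs1 (4.32) and Socs3 (7.54) were higher in CM. Socs1 fell in DMEM with ruxolitinib (-1.76). In CM it had 18.9, 18.2 and 17.7 CPM and in CM + Rux 14.6, 16.5 and 14.4 CPM, without overlap, and was not called (-0.26, adjusted p = 0.29), with an interaction of 1.499 (adjusted p = 0.030, and up to 0.14 over the alternatives). Irf8 had the opposite pattern, with 0.07 in DMEM and -0.90 in CM and an interaction of -0.97 (adjusted p = 0.012, and up to 0.069 over the alternatives). Of the 24 genes, 45.8% (11) rose and 8.33% (2) fell in CM against DMEM, where 20.9% of all genes were higher and 24.1% lower. With ruxolitinib 25.0% (6) fell in CM and 20.8% (5) in DMEM, against 2.13% and 0.97% of all genes. With IKK-16 16.7% (4) fell, against 3.66%. At 2 h 12.5% (3) were higher and 4.17% (1) lower, no more than the 12.6% and 10.7% of all genes.

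Of 13 nucleic acid sensors and adaptors, 46.2% (6) fell with ruxolitinib in DMEM and 30.8% (4) in CM, where 0.97% and 2.13% of all genes were lower. Zbp1 (-2.49 in DMEM and -2.20 in CM) and the RIG-I gene Ddx58 (-2.14 and -2.04) fell in both, and Tlr9 had the largest change in CM against DMEM (-2.77). Of 13 interferon-induced GTPases tested of 18 listed, 92.3% (12) fell with ruxolitinib in DMEM and 53.8% (7) in CM, against the same shares of all genes. In CM against DMEM 38.5% (5) were higher and 46.2% (6) lower, where 20.9% of all genes were higher and 24.1% lower. Gbp5, which builds coats on pathogen vacuoles, had means of 9.24 CPM in DMEM, 0.972 in DMEM + Rux, 144.4 in CM and 192.9 in CM + Rux. Its interaction was 3.72 (adjusted p = 0.012, and up to 0.091 over the alternatives), and it fell by 2.18 with IKK-16. Guanylate-binding proteins have close copies, so their counts are uncertain. A list of 16 other JAK-STAT targets, mainly of STAT3 and STAT5, shares Socs3 with the interferon pathway list. Of these 16, 0 were called with ruxolitinib in DMEM (1 had an unadjusted p under 0.05). With ruxolitinib in CM 37.5% (6) fell and 6.25% (1) rose, against 2.13% and 1.2% of all genes. In CM against DMEM 81.2% (13) were higher, with the largest value for Cish (9.90), and 12.5% (2) lower, Ccnd1 (-3.22) and Bcl6 (-1.36), against 24.1% lower and 20.9% higher of all genes. Cish had 5 and 3 counts in the DMEM samples, so its fold rests on very few counts.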

How the data were processed

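RNA was sequenced from 16 BMDM samples in stranded libraries. Per the labels and methods, the authors trimmed reads with Trimmomatic 0.33, aligned them with HISAT2 2.1.0 to GRCm38 and counted fragments per gene with featureCounts 1.6.2, and the deposited table holds raw counts of 55487 genes. Gene symbols matched 55141 identifiers, and the others held at most 0.0459% of a sample's counts. Counts were scaled by relative log expression after genes with CPM over 1 in at least 2 samples were kept (12372). One model of 6 groups was fitted with edgeR 4.0.16 (quasi-likelihood test, R 4.3.3), with Benjamini-Hochberg adjustment over all genes, so that 7 comparisons share the estimate of the spread. DMEM serves in several comparisons, as does CM + Rux. Adjusted p-values in the text come from this test unless another is named. CPM and RPKM used the scaled totals, and RPKM the exon length of each gene. DESeq2 1.42.0, TMM, other filters, a replicate block and each sample left out were alternatives. Shares of all genes called were computed for the main model only. The script was tested on simulated data. No 2 samples were copies. Replicate numbers come from the labels. Same-numbered samples deviated together in every pair of CM and CM + Rux (correlation of at least 0.433), of CM + Rux and CM + Rux + IKK-16 (0.503), and of CM + Rux and DMEM + Rux (0.172), so the numbers were taken to pair these samples. Groups with 2 pairs share only a number. Members and lists were chosen with earlier results of these data known. Genes named with values were the 5 most positive or most negative of a comparison whose mean reached 1 CPM, the 3 highest RPKM in DMEM and CM, members called in no comparison, and leading genes of each list. Other genes were picked after their values were seen. Some genes of the lists are not reported here by name. Sequences are from RefSeq. Other steps used Python 3.11.15, pandas 2.3.3 and matplotlib 3.10.9.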

Additional observations from a re-analysis of the deposited data

Results flagged for a closer look

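The response to ruxolitinib differed between the media by the interaction test for 4 members. The difference of the log2 fold changes, CM minus DMEM, was 4.51 for Mx1, 2.25 for Helz2, 1.03 for Parp14 and 0.63 for Ifi35. Mx1 kept its call in every alternative run, with values from 4.10 to 5.10 and adjusted p-values of at most 0.020, and Ifi35 did as well, with values from 0.59 to 0.68 and adjusted p-values of at most 0.041. Groups of 2 or 3 samples were too small for a test of single samples far from the others.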

How the results depend on the processing

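In CM against DMEM, 3 members were higher without a fold threshold and 3 with the replicate block, against 1, and leaving out 1 sample at a time gave 1 to 2 higher and 10 to 18 lower members, against 16 lower. For the interaction, 4 members became 11 without a filter on low counts, 7 with the likelihood ratio test, 12 with the replicate block, 8 without the number 2 samples (chosen after seeing the data) and 2 to 5 with 1 sample left out. With IKK-16, the 1 higher member became 0 without the number 2 samples and 0 to 1 with 1 sample left out, and the 5 lower members became 8 with the block. At 2 h, the 2 lower members became 5 with the block, 0 when only the compared groups were fitted and 0 to 4 with 1 sample left out. The cause was not tested. No share of all genes was computed under these settings, so a rise in members called may not be particular to the members. With the block, DMEM + Rux against DMEM had 37 lower members, of which 34 were called without it. DMEM and the 2 h group share too few numbers for the block to count as pairing there. The other counts of members stayed within 1.5 times, and of 18 named genes in 7 comparisons no value reversed a call, with 82 results gaining and 57 losing a call over 26 settings. Groups of 2 or 3 samples limit the precision, most for Ifit3b, which had 1 to 3 counts a sample in CM + Rux.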
